A study of Arabidopsis thaliana with 6 samples.

Results

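The response of the ago2 mutant lines of Arabidopsis thaliana to gamma irradiation was read from 4 of the 6 arrays of the series: the irradiated and the mock-treated array of line ago2a, and the irradiated and the mock-treated array of line ago2c. The 4 arrays were taken by their labelled line and treatment, and irradiated was set against mock within each line. Both lines carry a mutation of ARGONAUTE2 (AGO2) in the Columbia-0 background (the sources used here name no alleles), and the other 2 arrays hold Columbia-0 wild type (WT), irradiated and mock. Whole seedlings grown on agar with sucrose received 200 Gy from a cobalt source at 14 days of age (50 Gy per hour for 4 h), and RNA was measured 24 h after irradiation. Mock seedlings were not irradiated. Each array holds RNA of at least 10 seedlings a batch, pooled from 3 batches, so there was 1 array for each line and treatment and the 2 lines stood in for replicates.

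Ionizing radiation breaks DNA. In plants the transcription factor SOG1 answers such breaks by switching on repair genes and inhibitors of the cell cycle. AGO2 is a small RNA binding protein that is best known for antiviral defence and has also been linked to small RNAs formed at DNA breaks. In a seedling the root supplies transcripts that the shoot largely lacks, among them those of root hairs, of the Casparian strip that seals the endodermis, of suberin and of uptake transporters.

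Levels are given as the processed signal in percent of the array's 75th percentile, a scale on which a probe can be followed across arrays but not set against another probe. On each array 70.5% to 73.3% of the probes were well above background, the software's flag for a measurable signal, and no spot was saturated. Precision was limited by the small number of arrays. The probe for AGO2 was not well above background on any of the 4 ago2 arrays, with 0.696% and 0.366% in irradiated ago2a and ago2c and 0.289% and 0.913% in the mock arrays, and read 24.2% in irradiated WT and 11.5% in mock WT. AGO3, its closest paralog, did not pass the test in the ago2 lines (log2 change 0.04 in ago2a and -0.40 in ago2c by its brightest probe). Another AGO3 probe read 5.69% and 2.43% in irradiated ago2a and ago2c, against 8.55% and 3.62% in the mock arrays. In WT that probe read 4.22% irradiated and 7.53% mock. Markers of both organs were present, with all 23 photosynthesis genes and 28 of 29 root hair genes tested.

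A divide of unknown origin ran through the arrays, seen in how probes of the same locus compared with each other. Both WT arrays and mock ago2a behaved alike, and irradiated ago2a and both ago2c arrays behaved alike. Among 5615 loci with several probes, the other probes moved at least 2-fold against the brightest at 14.2% of loci between irradiated and mock ago2a, at 0.445% between irradiated and mock ago2c and at 0.178% between irradiated and mock WT. The ago2a comparison thus spans this divide and the ago2c comparison lies within one side of it. By the brightest probe 128 of these loci were at least 2-fold lower in ago2a, against 761 by the median of their other probes, whereas in ago2c the counts were 123 and 119. For this reason values are given for each line at many loci, and loci with several concurring probes are described first. Where a single log2 change is given for the ago2 lines, it is the mean of the 2 lines and so includes the ago2a comparison.

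Far more loci fell than rose in the ago2 lines. Limma was fitted to the 4 arrays with line as a block. At an adjusted p under 0.05, 1150 of 19806 loci (5.81%) fell and 194 (0.98%) rose. Of these, 882 and 147 had a probe well above background on all 4 arrays. The others include loci that entered the fit through the arrays of a single treatment, and their calls are no added support. The list counts below include such loci, RSL1, CASP4 and XTH21 among them. All 1344 called loci changed in the same direction in both lines, which the test fixed, since loci with opposite directions could not pass it. Without a test, 752 loci (3.8%) were at least 2-fold lower in both lines and 115 (0.581%) at least 2-fold higher. In ago2a alone 1301 loci (6.57%) were at least 2-fold lower and 264 (1.33%) higher. In ago2c alone 1082 (5.46%) were lower and 249 (1.26%) higher, and in WT 253 (1.28%) were lower and 217 (1.1%) higher. The median change of all loci was 0.04 on the log2 scale (0.07 in ago2a, 0.01 in ago2c), a value that the scaling largely sets. The split of calls depended on the processing. With arrays scaled to their median, which moved the median of all loci to 0.17, 1316 fell and 528 rose. Then 28.6% of calls were higher, against 14.4% in the main scaling. Median scaling also made the prior degrees of freedom infinite, against 3.68, so scaling and prior cannot be told apart here. With the main scaling and a trended prior, 1300 fell and 330 rose (20.25% of calls higher). The calls also depended on the fit. They were 0 lower and 0 higher without line, with no filter on dim probes, and with the median of the other probes. With WT added as a line they were 7 and 52.

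**Figure D1:**
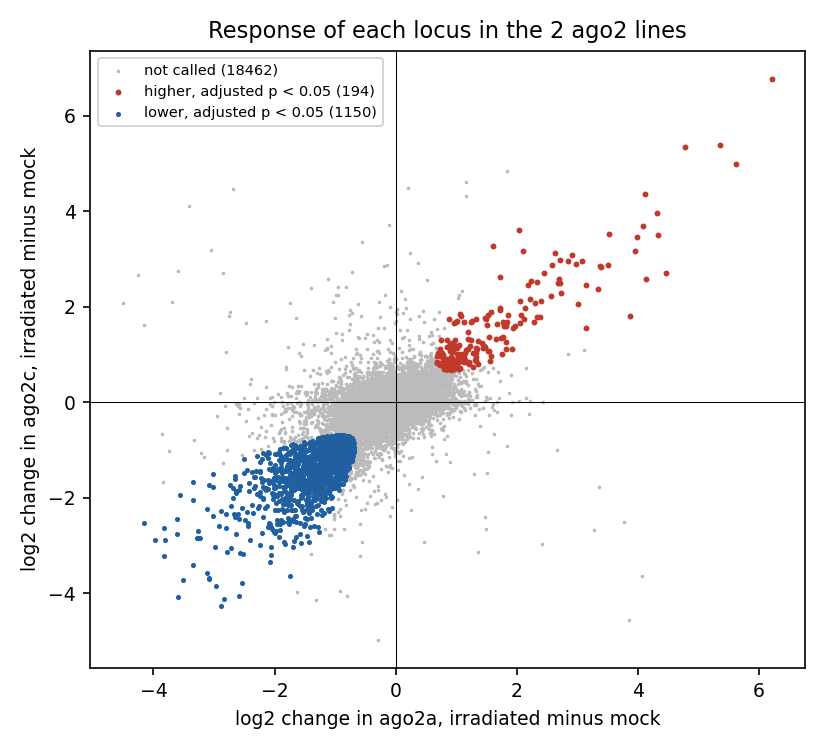
Log2 change of each of the 19806 loci in line ago2a (horizontal axis) and line ago2c (vertical axis), irradiated minus mock, 1 point a locus. The 1150 loci that fell (blue) and the 194 that rose (red) lie in the lower left and the upper right quadrant, as the test required. The grey points in the other quadrants include loci that moved in opposite directions in the lines.

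The lines also differed from each other. At 29 loci ago2a was at least 2-fold lower and ago2c at least 2-fold higher, and at 11 loci the reverse held. Lower calls were commonest among weak signals: they made up 14.9% of the tenth of loci with the weakest mock signal and 1.46% of the tenth with the strongest. Of the 752 loci lower in both lines, 225 were not well above background on at least 1 irradiated array, and their size there is not measured.

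The loci lower in the ago2 lines were mostly not lower in WT, and the loci higher in the ago2 lines mostly were higher in WT. Of the 752 loci at least 2-fold lower in both ago2 lines, 52 were at least 2-fold lower in WT, and their median log2 change was -1.58 in the ago2 lines and 0.03 in WT. Of the 115 loci at least 2-fold higher, 84 were at least 2-fold higher in WT, with medians of 1.85 and 1.59. The test of the difference itself, an interaction fit with limma on all 6 arrays, called 0 loci (0% lower and 0% higher). Its smallest adjusted p was 0.11, and 1745 loci had an unadjusted p under 0.05, of which 1554 had the lower response in the ago2 lines. The count depended on the processing: 715 lower and 36 higher responses were called with normexp background correction, 582 and 94 with arrays scaled to their median, and 205 and 4 with a trended prior. That test had 1 residual degree of freedom and a single pair of WT arrays, so a WT value printed below beside an ago2 call does not show that the responses differ.

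Most tested genes of the DNA damage response rose. Of 24 such genes 22 were tested, 19 rose and 0 fell, against 0.98% of all loci that rose, and 18 were at least 2-fold higher in both lines. Their median log2 change was 2.33 (2.24 in ago2a, 2.13 in ago2c), beside 0.04 for all loci, and 1.97 in WT. The members that did not pass were KU70 and KU80, which form the end-joining heterodimer, and BARD1, the partner of BRCA1, with log2 changes of -0.02, 0.28 and 0.73.

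SMR7, a SOG1 target that inhibits cyclin-dependent kinases, read 1041% and 759% in irradiated ago2a and ago2c, against 21.1% and 23.8% in the mock arrays. The irradiated arrays lay far above the mock arrays, a log2 change of 5.31 ± 0.20 (SE, 2 lines; limma adjusted p = 0.00785), and WT read 830% irradiated and 22.7% mock. PARP2, a poly(ADP-ribose) polymerase that senses breaks, read 456% and 383% in irradiated ago2a and ago2c and 26.7% and 29.7% in the mock arrays. ANAC103, a NAC transcription factor under SOG1, read 33.4% and 29.8% in irradiated ago2a and ago2c and 2.91% and 2.59% in the mock arrays, with the same log2 change of 3.52 in each line. In none of these genes did the groups overlap, but they were named for large changes in both lines. The share of all loci without overlap was not counted. BRCA1, a recombination repair factor, changed by 3.19, XRI1, a gene required for meiosis and induced by X-rays, by 3.00 and GMI1, an SMC-hinge protein, by 3.02 on the log2 scale. CYCB1;1, the B-type cyclin that DNA damage induces, rose by 2.09 on the log2 scale, whereas the other B-type cyclins of the G2/M list did not pass the test. GEX1, a membrane protein known from gametes, was not well above background on either mock array and was at least 13.4-fold higher after irradiation (limma adjusted p = 0.00785). It entered the fit through its irradiated arrays alone, so this p is no added support.

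Loci where every probe concurred were looked at next. Of 5769 loci with at least 2 probes well above background on both irradiated arrays, 8 (0.139%) were at least 2-fold higher by every one of these probes in both lines, and 7 of the 8 passed the test. At least 1 such probe was higher at 19 loci (0.329%), these included, and among the 13442 loci with 1 such probe 100 (0.744%) were higher. The fold rule on the same arrays largely fixed that 7 of the 8 passed. Of the 115 loci at least 2-fold higher in both lines, 107 passed. AT5G07610 read 203% and 123% in irradiated ago2a and ago2c against 2.72% and 1.13% in the mock arrays, and mock ago2c was not well above background. Its log2 change in ago2a, where both arrays were measured, was 6.22. AT4G22960 read 56.4% and 43.7% in irradiated ago2a and ago2c, against 1.37% and 1.04% in the mock arrays, where this probe was not well above background. The size of its rise by this probe is therefore not measured, and the smallest log2 change among its probes and lines was 1.35.

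Enzymes of nucleotide supply belonged to this set of concurring loci. TSO2, a small subunit of ribonucleotide reductase, read 3752% and 3923% in irradiated ago2a and ago2c against 571% and 695% in the mock arrays, and the thymidine kinase TK1A read 723% and 645% against 132% and 98.6%. For both genes every irradiated array was several times above every mock array, with log2 changes of 2.61 ± 0.14 and 2.58 ± 0.15 (SE, 2 lines, limma adjusted p = 0.00931 and 0.00936). Both were named for large changes, and the share of all loci with such a gap was not counted. The chromatin remodeller chr31 (AT1G05490), also known as CLASSY3 and active in RNA-directed DNA methylation, read 30.1% and 29.7% in irradiated ago2a and ago2c against 2.89% and 4.09% in the mock arrays. Its 4 probes rose by 2.67 to 4.29 on the log2 scale, and WT read 21.8% irradiated and 3.91% mock. The protein kinase SIP4 rose by 2.26, and AT1G32570 was at least 3.70-fold higher, since its probes were not well above background on the mock arrays.

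WRKY50, a transcription factor of defence signalling, shows how a locus could meet the fold rule and still miss the test. It read 87.3% and 37.7% in irradiated ago2a and ago2c against 39.0% and 1.87% in the mock arrays, so irradiated ago2c lay below mock ago2a, and mock ago2c was not well above background. The log2 change in ago2a was 1.16, the size in ago2c is not measured, and the limma adjusted p was 0.13. Among loci with 1 such probe, AT5G60250 rose by 4.24 ± 0.14 on the log2 scale (limma adjusted p = 0.00785), and CYP96A11, a cytochrome P450, was at least 3.93-fold higher.

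**Figure D2:**
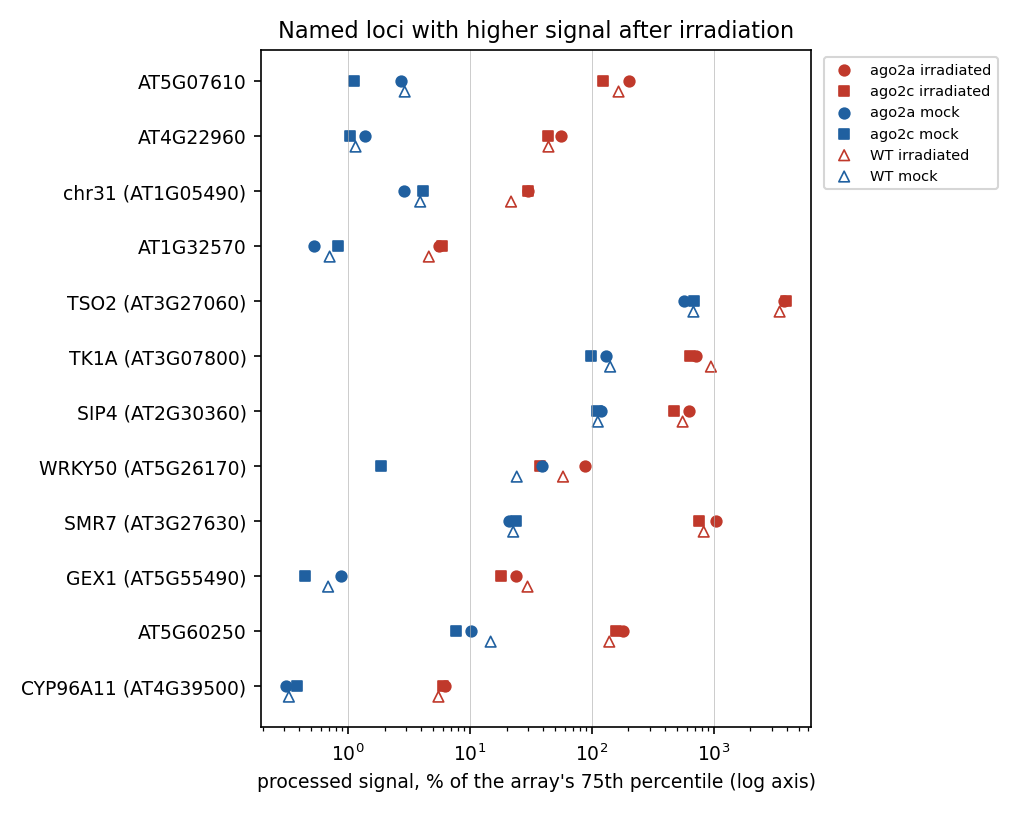
Processed signal, in percent of each array's 75th percentile on a log axis, of the 12 named loci with higher signal after irradiation. Filled red symbols (irradiated ago2a and ago2c) lie right of filled blue symbols (mock) in every row except WRKY50, where irradiated ago2c and mock ago2a meet, and the open triangles show WT.

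Some genes of DNA replication rose. Of 13 genes, all tested, 4 rose and 0 fell, beside 0.98% of all loci that rose, and the median log2 change was 0.56 (0.59 in ago2a, 0.65 in ago2c, 0.41 in WT). They were RNR1, the large subunit of ribonucleotide reductase (1.46), the sliding clamp PCNA1 (0.90) and the helicase subunits MCM5 (0.80) and MCM3 (0.76). Of 17 genes of the G2/M phase 0 rose and 0 fell in limma, with a median log2 change of -0.24 in the ago2 lines and -0.49 in WT.

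The lower side was checked first by probes. Of 5709 loci with at least 2 probes well above background on both mock arrays, 86 (1.51%) were at least 2-fold lower by every one of these probes in both ago2 lines. At least 1 such probe was lower at 160 loci (2.8%), these included. The share among the 13558 loci with 1 such probe was higher, 647 loci or 4.77%. Of the 86 loci, 84 passed the test. The fold rule on the same arrays largely fixed this: 734 of the 752 loci at least 2-fold lower in both lines passed. The median log2 change of the 86 loci in WT was 0.03, and 4 were at least 2-fold lower in WT. Among all 1150 loci that fell, 165 had several probes to compare and 968 had 1, so the fall of most loci rests on a single probe.

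AIR1, which encodes a small proline-rich protein first found as auxin-induced in root cultures, fell most among the concurring loci. It read 17.5% and 5.998% in irradiated ago2a and ago2c, against 149% and 76.2% in the mock arrays, and 47.2% in irradiated and 87.6% in mock WT. The irradiated ago2 arrays lay below all other arrays, but AIR1 was named for its large change, and the share of all loci with this pattern was not counted. The fall was 10.4-fold, a log2 change of -3.38 ± 0.19 (SE, 2 lines, limma adjusted p = 0.00936), and its 2 probes ranged from -3.09 to -4.70. Only 1 of the 2 was well above background on both irradiated arrays. The value of -4.70 came from the other probe and may be no measured size. AT4G12510, a near neighbour of AIR1 by locus number, read 98.7% and 50.3% in irradiated ago2a and ago2c, against 449% and 267% in the mock arrays.

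AGP30, AGP13 and FLA6 encode proteins of the cell surface. AGP30, an arabinogalactan protein of roots, read 14.6% and 12.6% in irradiated ago2a and ago2c, against 59.4% and 48.1% in the mock arrays, and 69.1% in irradiated and 60.0% in mock WT. The groups did not overlap, and the log2 change was -1.98 ± 0.14 (SE, 2 lines; limma adjusted p = 0.011). AGP13, a small arabinogalactan peptide, read 24.4% and 13.4% in irradiated ago2a and ago2c, against 89.2% and 62.7% in the mock arrays. FLA6, a fasciclin-like arabinogalactan protein, read 7.31% and 2.44% in irradiated ago2a and ago2c, against 28.4% and 14.4% in the mock arrays. In AGP13 and FLA6, too, both irradiated arrays lay below both mock arrays, but all of these genes were named for large changes in both lines. For this pattern, too, the share of all loci was not counted.

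ALMT1, the channel through which roots release malate, was measured by 3 probes. Its brightest probe read 55.1% and 26.2% in irradiated ago2a and ago2c, against 183% and 101% in the mock arrays, and 163% in irradiated and 137% in mock WT. The log2 changes of the 3 probes lay between -2.55 and -1.01 in the ago2 lines and between 0.25 and 0.44 in WT. Only 2 of the 3 were well above background on both irradiated ago2 arrays. AGL44, a MADS-box factor also known as ANR1 that links nitrate to lateral root growth, read 2.50% and 1.90% in irradiated ago2a and ago2c, against 11.2% and 6.65% in the mock arrays. MYB40, a MYB transcription factor, read 2.34% and 0.964% in irradiated ago2a and ago2c, against 9.88% and 5.60% in the mock arrays, the value of irradiated ago2c being not well above background. THI2.1, a thionin with antimicrobial activity, had log2 changes of -2.58 in ago2a, -1.84 in ago2c and -0.70 in WT.

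The other 6 named loci, which carry no symbol in the gene table, had log2 changes between -2.48 and -1.78 by the brightest probe. They were AT2G34020 (-2.48), AT3G01260 (-2.47), AT5G26260 (-2.21), AT1G73160 (-2.10), AT4G33720 (-1.83) and AT5G23830 (-1.78). For AT2G34020 and AT1G73160 irradiated ago2c was not well above background, so the size of their fall there is not measured. AT4G33720 went the other way in WT: it read 53.8% and 12.6% in irradiated ago2a and ago2c, against 180% and 47.6% in the mock arrays, and 148% in irradiated against 55.5% in mock WT. Across the 15 loci each probe was at least 2-fold lower in both ago2 lines, as the rule required, while in WT the probes ranged from -0.93 to 1.53.

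**Figure D3:**
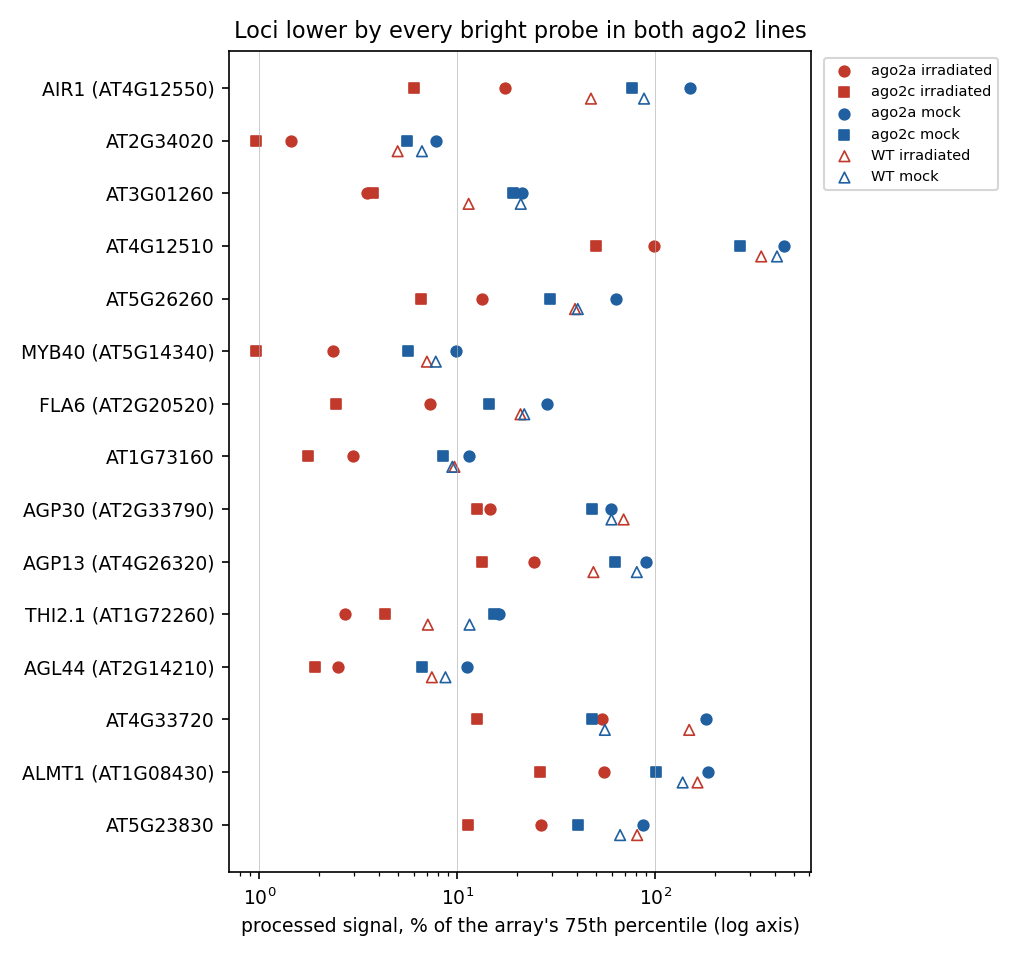
Processed signal, in percent of each array's 75th percentile on a log axis, of the 15 named loci that were lower by every probe. Filled red symbols (irradiated ago2a and ago2c) lie left of the filled blue symbols of the same shape (mock) in each row, and the open triangles show WT; mock ago2c lies below irradiated ago2a at AT4G33720.

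**Figure D4:**
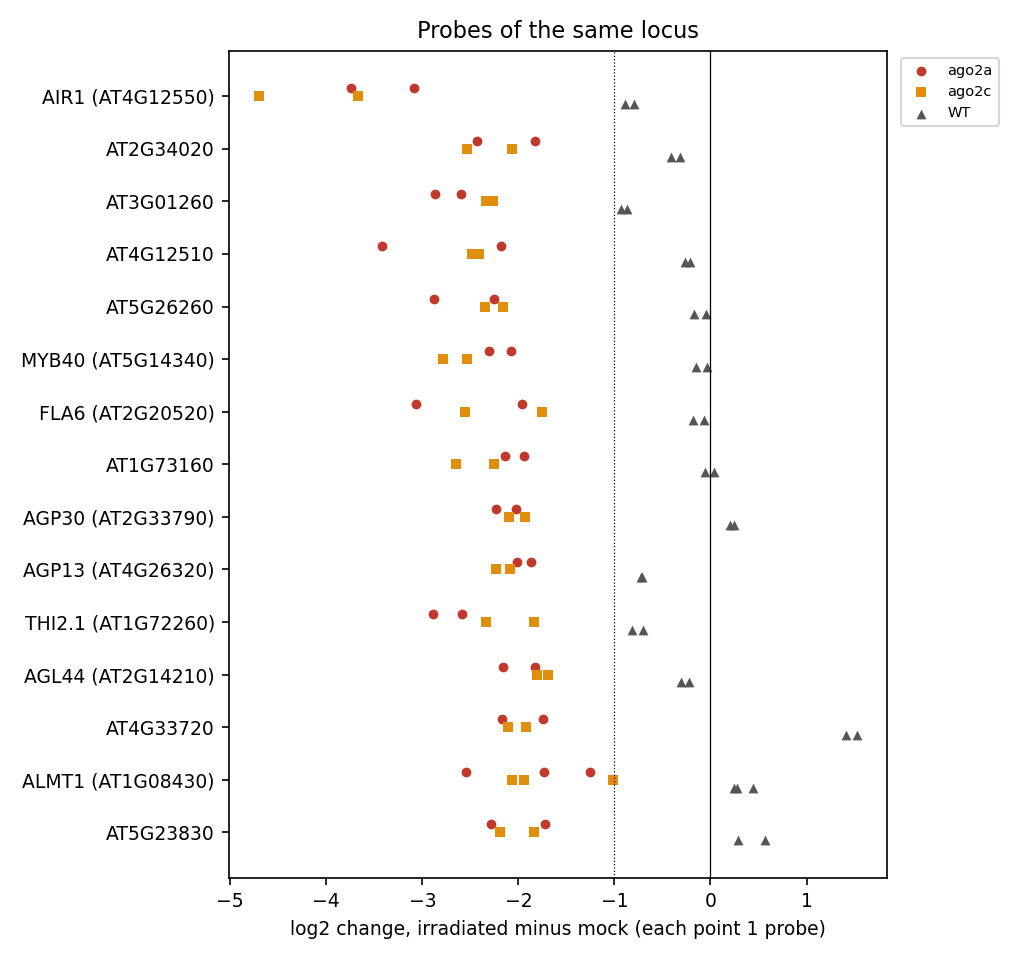
Log2 change, irradiated minus mock, of each probe of the same 15 loci in ago2a (red circles), ago2c (orange squares) and WT (grey triangles). All ago2 points lie left of the dotted line at a 2-fold decrease, which the rule fixed, and all WT points lie right of it, from -0.93 to 1.53. Some probes were not well above background on an irradiated ago2 array, so their sizes there are not measured.

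Larger falls by a single probe mostly ended at the limit of measurement. Of the 8 such loci named, 7 were not well above background on either irradiated array, so their fall is a lower bound: at least 2.93-fold for AT1G56553, 2.49-fold for AT4G08800, 2.14-fold for AT4G26280, 2.08-fold for the trehalose phosphate synthase TPS2, 4.03-fold for AT4G28088, 2.82-fold for the cytochrome P450 gene CYP705A30 and 2.17-fold for AT4G35210. AT5G46890 read 1.67% and, not well above background, 0.714% in irradiated ago2a and ago2c, against 23.9% and 6.66% in the mock arrays, and 9.09% in irradiated against 19.9% in mock WT. The first 7 entered the fit through their mock arrays alone, and their limma adjusted p (0.00785 to 0.0111 over all 8 loci) is no added support.

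The list with the most members that fell was that of root hair genes. In whole seedlings, fewer cells of a type and less RNA per cell cannot be told apart. Of 29 root hair genes 28 were tested, and 20 fell and 0 rose, beside 5.81% of all loci that fell. Their median log2 change was -1.55 (-1.56 in ago2a and -1.60 in ago2c), against 0.04 for all loci and 0.20 in WT, where 0 were at least 2-fold lower. In ago2c alone, which the divide between arrays does not touch, 22 of the 28 were at least 2-fold lower, against 5.46% of all loci, and in ago2a 21 were, against 6.57% of all loci. The summed signal of the list was 583% and 395% in irradiated ago2a and ago2c, 1424% and 813% in the mock arrays, and 1357% in irradiated and 1175% in mock WT. Only 1 of the 28 had several probes to compare, and not all of these were at least 2-fold lower in both lines. Nearly all falls in this list thus rest on a single probe.

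The 20 that fell included regulators and wall proteins. RSL4, the transcription factor that drives hair growth, read 2.50% and 0.729% in irradiated ago2a and ago2c, against 9.83% and 4.71% in the mock arrays, with irradiated ago2c not well above background. EXPA7, an expansin that loosens the wall of growing hairs, read 5.66% and 2.84% in irradiated ago2a and ago2c, against 30.8% and 17.1% in the mock arrays, and 29.9% in irradiated and 25.5% in mock WT. The log2 change of EXPA7 was -2.51 ± 0.14 (SE, 2 lines; limma adjusted p = 0.00931). PRP1, a proline-rich wall protein, changed by -2.38 in ago2a and was not well above background in irradiated ago2c. RSL1, a relative of RSL4, was at least 1.62-fold lower, being not well above background on either irradiated array. RSL1 entered the fit through its mock arrays alone, so its call is no added support.

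The 8 members that did not pass included RHD6 and LRX1, whose lines differed. RHD6, the regulator above RSL4, had log2 changes of -0.30 in ago2a and -1.84 in ago2c, and LRX1, a leucine-rich extensin, of -1.60 in ago2a and 1.03 in ago2c.

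Most tested genes of the Casparian strip fell too. Of 12 genes 11 were tested, 10 fell and 0 rose, beside 5.81% of all loci that fell, and the median log2 change was -1.75 (-1.56 in ago2a, -1.77 in ago2c, -0.05 in WT). Both members with several probes, the regulator MYB36 with 2 and the peroxidase gene PER72 with 3, were at least 2-fold lower by every probe in both lines. MYB36, which switches on the strip's genes, read 12.8% and 8.37% in irradiated ago2a and ago2c, against 36.1% and 27.0% in the mock arrays, and 32.6% in irradiated and 33.8% in mock WT. CASP1, a scaffold protein of the strip, read 52.9% and 34.1% in irradiated ago2a and ago2c, against 176% and 118% in the mock arrays. In both genes the irradiated ago2 arrays lay below all 4 others, but the share of all loci with this pattern was not counted. The log2 changes were -1.59 ± 0.14 and -1.76 ± 0.13 (SE, 2 lines, limma adjusted p = 0.0117 and 0.0111). PER64, a peroxidase that lignifies the strip, changed by -1.80, and CASP4 was at least 3.11-fold lower. GSO1, the receptor kinase that monitors the barrier, did not pass, with a log2 change of -0.58.

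The suberin list was divided. Of 14 genes 13 were tested, 7 fell and 0 rose (5.81% of all loci fell), and the median log2 change was -0.86 (-0.83 in ago2a, -1.07 in ago2c, 0.12 in WT). The members that fell included the acyltransferase GPAT5 (-1.65), the fatty acid hydroxylase CYP86A1 (-1.38) and the exporter ABCG6 (-1.65). CYP86A1 read 79.4% and 42.7% in irradiated ago2a and ago2c, against 211% and 109% in the mock arrays, and 180% and 182% in irradiated and mock WT. The fatty acid elongase KCS20, with 4 probes, and the reductase FAR1, with 2, did not pass, with log2 changes of -0.05 and -0.09. Of the 4 members with several probes to compare, 0 were at least 2-fold lower by every probe in both lines.

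Transporters of the root that passed the test mostly fell. Of 20 genes, all tested, 9 fell and 1 rose, beside 5.81% and 0.98% of all loci, with a median log2 change of -0.76 (-0.85 in ago2a, -0.60 in ago2c, 0.16 in WT). The phosphate transporter PHT1;1 read 356% and 145% in irradiated ago2a and ago2c, against 986% and 456% in the mock arrays, and 1031% in irradiated against 663% in mock WT. The ammonium transporter AMT1;3 changed by -1.25 and the nitrate transporter of xylem loading NPF7.3 by -1.08, and the sulfate transporter SULTR1;1 was at least 2.68-fold lower. HAK5, the high-affinity potassium transporter, fell in the ago2 lines (log2 change -0.95 ± 0.14, SE, 2 lines; limma adjusted p = 0.0273) and had a log2 change of 1.35 in WT. NRT2.1, the high-affinity nitrate transporter, was the member that rose. It read 2.15% and 3.14% in irradiated ago2a and ago2c, against 1.11% and 0.998% in the mock arrays. The mock values were not well above background, so it entered the fit through its irradiated arrays alone, and the call is no added support. In WT NRT2.1 read 0.891% irradiated, not well above background, and 2.36% mock. Of the 6 transporter genes with several probes to compare, 0 were at least 2-fold lower by every probe in both lines.

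Of 16 genes of iron acquisition 11 were tested and 3 fell, beside 5.81% of all loci, the regulators BHLH39 (at least 1.95-fold) and BHLH100 (log2 change -1.28 in ago2c and -1.64 in WT, and not well above background in irradiated ago2a) and the coumarin enzyme F6'H1 (-1.26). The uptake genes IRT1 and FRO2 did not pass and differed between the lines, with -1.51 and -1.31 in ago2a and -0.20 and -0.49 in ago2c. Of 14 genes of the root meristem and cap 11 were tested and 4 fell, against the same share of all loci: the auxin exporter PIN2 (-1.71), the epidermal regulator WER (-1.45), the cap regulator BRN2 (-1.29 in ago2a, and not well above background in irradiated ago2c) and the stem cell regulator PLT1 (at least 1.86-fold). SHR and SCR, which pattern the ground tissue, and WOX5, which marks the quiescent centre, did not pass, with -0.02, 0.19 and 0.28. In each of these 2 lists 2 members had several probes to compare, and 0 were at least 2-fold lower by every probe in both lines.

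Root triterpene and water channel genes were where the lines differed in size. Of the 6 genes of the thalianol and marneral clusters 5 were tested, and 0 passed the test, although all 5 were lower in both lines. The thalianol desaturase gene THAD read 42.8% and 7.72% in irradiated ago2a and ago2c, against 96.3% and 48.6% in the mock arrays, and 83.2% in irradiated against 49.2% in mock WT. Its log2 change was -1.17 in ago2a and -2.65 in ago2c, for an adjusted p of 0.0579 in limma, and the list medians were -1.02 in ago2a, -2.39 in ago2c and 0.76 in WT.

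Of the 12 aquaporins 3 fell, beside 5.81% of all loci: TIP4;1 (-2.46 in ago2a, -1.42 in ago2c), PIP2;4 (-1.92 and -1.05) and TIP2;3 (-0.94 and -1.84). Of the 2 probes of TIP2;3 only 1 was at least 2-fold lower in both lines. The list median was -0.82 in ago2a and -0.01 in ago2c (0.07 in ago2c with arrays scaled to their median). PIP1;2, a plasma membrane aquaporin with 6 probes, read 1092% and 1089% in irradiated ago2a and ago2c, against 1973% and 957% in the mock arrays, so its lower signal in ago2a had no counterpart in ago2c.

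Families of wall proteins were counted beside the 5.81% of all loci that fell. Of 30 arabinogalactan protein genes 27 were tested and 8 fell, AGP22 (-2.31) and AGP3 (-1.97) among them, and of 30 xyloglucan endotransglucosylase genes 24 were tested and 8 fell, with a median log2 change of -0.65. XTH14, an enzyme of root hairs, read 79.5% and 39.2% in irradiated ago2a and ago2c, against 303% and 132% in the mock arrays. XTH15, with 2 concurring probes, changed by -1.65, XTH33 by -1.57, and XTH21 was at least 4.48-fold lower. Of 28 genes with extensin in the name 18 were tested and 4 fell (EXT10, EXT6, RHS10 and EXT3), of 24 alpha-expansins 15 were tested and 2 fell (EXPA7 and EXPA18), and of 19 fasciclin-like genes 13 were tested and 1 fell (FLA6), a share near that of all loci. No member of these 5 families rose in limma. The extensin genes were gathered by name and the other families by symbol, after values of these data had been seen.

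**Figure D5:**
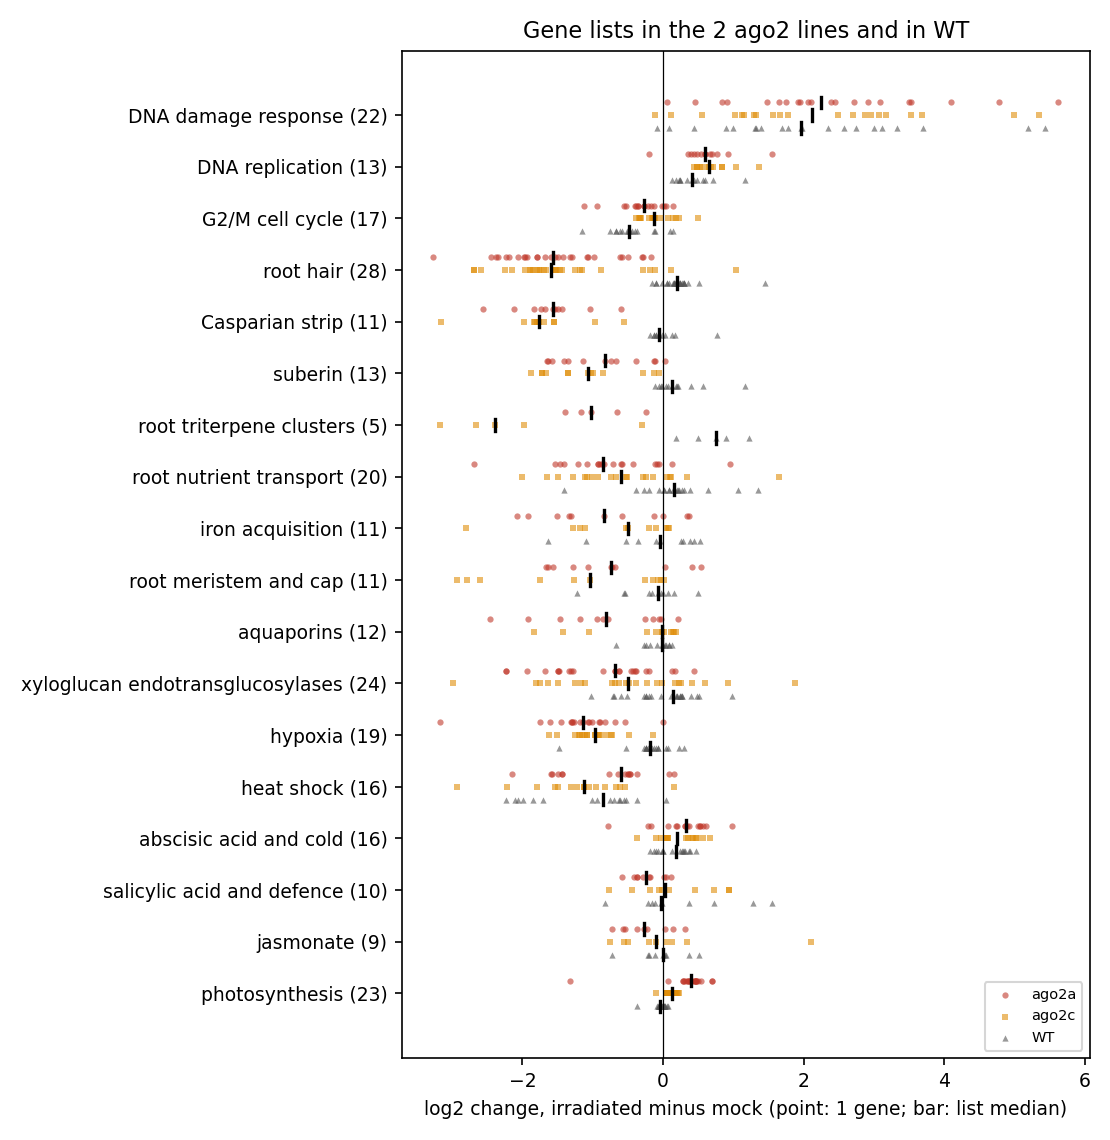
Log2 change, irradiated minus mock, of the members of 18 gene lists in ago2a (red), ago2c (orange) and WT (grey), with the number of tested genes in brackets and list medians as black bars; the damage response list is drawn without 1 member. The medians of the root hair list lie at -1.56, -1.60 and 0.20 and those of the damage response list at 2.24, 2.13 and 1.97 in ago2a, ago2c and WT.

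Hypoxia genes, which plants switch on when oxygen is short, formed the largest lower group outside the root lists. Of 19 genes, all tested, 13 fell and 0 rose, beside 5.81% of all loci that fell, with a median log2 change of -1.06 (-1.13 in ago2a, -0.97 in ago2c, -0.18 in WT). SUS4, a sucrose synthase, was lower at least 2-fold by all 3 probes and read 111% and 89.5% in irradiated ago2a and ago2c, against 275% and 190% in the mock arrays, and 241% in irradiated and 252% in mock WT. HUP9 and SAD6, a desaturase, were lower at least 2-fold by both probes, with log2 changes of -1.43 and -1.40. Of the 10 members with several probes to compare, only these 3 genes were lower at least 2-fold by every probe. ERF71, a regulator of the response, had a log2 change of -1.75 in ago2a and -1.48 in WT, and was not well above background in irradiated ago2c. ADH1 and PDC1, the enzymes of ethanol fermentation, had log2 changes of -0.71 and -0.99 and did not pass, with limma adjusted p of 0.0557 and 0.0519.

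Heat shock genes were lower in WT as well. Of 18 genes 16 were tested, 6 fell and 0 rose in the ago2 lines, beside 5.81% of all loci that fell, with a median log2 change of -0.92 (-0.59 in ago2a, -1.13 in ago2c, -0.85 in WT), and 7 were at least 2-fold lower in WT. HSFA2, a heat shock factor, read 16.2% and 8.57% in irradiated ago2a and ago2c, against 44.0% and 39.9% in the mock arrays, and 9.99% in irradiated and 43.1% in mock WT. HSP23.6, a small mitochondrial chaperone, read 20.9% and 5.82% in irradiated ago2a and ago2c, against 92.3% and 20.3% in the mock arrays, so that irradiated ago2a was level with mock ago2c although each line fell. Its log2 change was -1.97 ± 0.16 (SE, 2 lines; limma adjusted p = 0.0111), and -1.99 in WT.

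Few or no members passed in the remaining lists. Of 16 genes of abscisic acid and cold and 10 tested genes of salicylic acid and defence, 0 rose and 0 fell in limma, and of 9 jasmonate genes 1 fell, JAZ7 (-0.74, and -0.73 in WT). Of 23 photosynthesis genes 0 rose and 0 fell. Their summed signal, which marks green tissue, was 427689% and 521293% in irradiated ago2a and ago2c, against 319736% and 479041% in the mock arrays, and 354567% in irradiated and 359959% in mock WT. Their median log2 change of 0.26 became -0.01 when arrays were quantile normalized and -0.01 when probes of a locus were averaged. The part of a changed share of root RNA in the falls above was not tested.

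The largest differences from WT were found at weak signals and did not pass the test of the difference (limma adjusted p from 0.111 to 0.16). AT5G28660 read 4.29% and 3.07% in irradiated ago2a and ago2c, against 0.278% and 0.342% in the mock arrays, while both WT arrays (0.243% irradiated and 0.502% mock) were not well above background. GILT, RALFL19, a RALF-like peptide gene, AT3G31910 and AT3G28230 had the same form: measured on both irradiated ago2 arrays and not well above background on the other 4. In the other direction TPS2, AT4G08800, AT4G08760 and AT1G56553 were measured on both mock ago2 arrays and on neither irradiated one. AT1G63055 read 2.32% and 0.368% in irradiated ago2a and ago2c, against 14.0% and 6.13% in the mock arrays, the value of irradiated ago2c being not well above background.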

How the data were processed

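Arrays were single-colour Agilent arrays, and the intensity used was the deposited processed signal, background-corrected by Feature Extraction per the file headers. The authors' deposited matrix holds a linear ratio of unstated scale (column medians 0.878 to 1.06) and served as an alternative. Control spots and 53 probes with outlier flags were left out. Values were log2 processed signals minus each array's 75th percentile. Of 43603 probes 34309 were matched to 1 locus through their accession in a TAIR10.1 gene table. A probe entered when its well-above-background flag was set on 2 or more of the 4 ago2 arrays, and the brightest stood for its locus. Fits were made in R 4.3.3 with lmFit and eBayes of limma 3.58.1, with p-values adjusted by Benjamini-Hochberg over all 19806 loci, 1 residual and 3.68 prior degrees of freedom, and were tested on simulated data. WT and ago2a lay on slide 1 and ago2c on slide 2, so the line block holds the slide. Arrays of a line pair by labelled line, and their deviations from the treatment means correlated across loci (r = 0.645). The labels name no replicate cultures of a line, so p-values rest on the spread between 2 lines, which may be technical, and on the prior over loci. The same holds for the printed SEs: ANAC103, with the same log2 change of 3.52 in each line, had an SE of 0.13.

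The members and gene lists were chosen with earlier results of these data known. Named loci were the 15 lower and 8 higher with the largest smaller change of the 2 lines among those with at least 2 probes all moved 2-fold, the 8 lower and 4 higher among those with 1 probe, up to 4 called members a list, and the 5 largest differences from WT each way; other list members are examples. Because naming went by the size of the change in both lines, groups of a named locus that do not overlap are partly a result of the naming. A fold against a group not well above background is a bound, set against the lowest measurable signal. Alternatives were other background corrections, scalings, filters, probe rules, priors and blocks, and each line alone. For a few list members no value of their own is reported here. Class III peroxidases could not be gathered from the gene table.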

Additional observations from a re-analysis of the deposited data

Results flagged for a closer look

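Among the named loci and list members, 6 passed the test in the ago2 lines while their WT values pointed the opposite way by at least 2-fold. Each WT value rests on 1 pair of arrays, and the difference from WT did not pass its test (limma adjusted p from 0.111 to 0.113). The fitted difference of the log2 changes, ago2 minus WT, was -3.25 for AT4G33720, which both its probes showed, and -2.30 for HAK5, both measured on all 6 arrays. The other 4 loci were not well above background on at least 3 arrays, so their fitted differences are no measured sizes: -6.05 for TPS2, -4.86 for AT4G08800, 4.60 for AT5G28660 and 2.71 for NRT2.1. AT4G08800 and AT5G28660 were not well above background on either WT array, so that no change in WT was measured for them. Loci outside the named loci and lists were not counted. CYP702A5 is an example there, with log2 changes of -1.36 in ago2a, -1.12 in ago2c and 1.19 in WT.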

How the results depend on the processing

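No locus named by the rule changed direction under an alternative in which it was fitted. The naming largely fixed this, since it took loci that moved the same way in both lines. Of the 94 named loci, 93 lost their call with no filter on dim probes and 93 without line in the fit. With WT added as a line 78 lost it, and 28 lost it by the median of the other probes, where fewer could be fitted. The 1150 lower and 194 higher calls came to 1902 and 541 with normexp, and to 1316 and 528 with median scaling (authors' values 1319 and 528), where the prior degrees of freedom were infinite. Higher calls came to 116 with the mean of probes and 330 with a trended prior. Calls were 0 and 0 without the replicate block, that is without line (unadjusted p under 0.05: 1527 lower and 589 higher), 0 and 0 with no filter on dim probes (2650 and 1175), 0 and 0 with the median of the other probes (385 and 55), and 7 and 52 with WT added as a line. With WT and 1 ago2 line, leaving out the other, they were 0 to 13 lower and 0 to 35 higher; there the lone ago2 line is assumed to vary like WT. The difference from WT, 0 loci in the main fit, was called for 715 lower and 36 higher with normexp, 582 and 94 with median scaling, 205 and 4 with a trended prior, and 1 lower among loci measured on all 6 arrays. The 752 and 115 loci 2-fold changed in both lines came to 303 and 49 with normexp, 1415 and 286 at 1.5-fold, 68 and 41 at 4-fold, 138 and 11 by the other probes, to 68 higher among loci measured on all 4 arrays, and to 1082 to 1301 lower and 249 to 264 higher in a single line. The 86 and 8 loci with every probe concurring came to 182 and 28 at 1.5-fold, 959 and 943 by sign alone, 31 and 5 with normexp, 13 higher with median scaling, and 132 to 140 lower and 18 higher in a single line. The causes were not tested. With 1 array a condition, p-values rest on 2 lines and a prior over loci, and signals near background allow bounds instead of folds.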
